A study of Mus musculus with 9 samples.

Results

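The genes described here are 10 that belong to the Hippo pathway's transcriptional output: Ccn1, Ccn2, Ankrd1, Amotl1, Amotl2, Ajuba, Lats2, Axl, Tead1 and Yap1. They were chosen by name as targets or carriers of the coactivators YAP and TAZ, and all 10 were found among the 55487 genes of the deposited tables. RNA-seq was done on PT-22 cells, a mouse kidney line labelled as proximal tubule, with genotype Pax2-/-, Pax8fl/fl, Rosa-CreERT2 and a Pax8 insert in the doxycycline-inducible vector pTRIPZ. Every group carries these alleles and the vector, so each is a state of the same engineered line. Day 0 cells (3 libraries) had no treatment, day 6 cells (3) had received 1 uM 4-hydroxytamoxifen, which activates CreERT2, and day 12 cells (3) had in addition received doxycycline at 1 ug/ml, renewed every 2 days for 6 days. All were grown in medium with 3% fetal bovine serum. The labels give 2 days of 4-hydroxytamoxifen in one place and 6 days of depletion in another, and the series design has the cells at confluence when treatment began. Nothing in the labels says whether libraries A, B and C are separate cultures, so the spread behind each p-value could be technical in origin.

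The Hippo pathway is a kinase cascade that restrains growth of tissues. MST kinases activate LATS kinases, and LATS phosphorylates YAP and TAZ, which keeps them in the cytoplasm. Free YAP and TAZ enter the nucleus, bind TEAD transcription factors and raise genes for matricellular proteins, cytoskeletal proteins and receptors. Several of those targets (LATS2, angiomotin-like proteins, AJUBA) act back on the cascade. Cell density, cell shape and tension on the cytoskeleton are known inputs, and in kidney tubules the pathway is known for roles in injury and fibrosis. An RNA level does not report where the YAP protein is or how it is phosphorylated.

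Libraries held 56398623 to 86767334 counts, and members had between 3387 and 44763 counts in each library. Low depth therefore limits none of the members' values, but some paralogs, list genes and markers below rest on far fewer counts. Pax8, the gene meant to be removed and then restored, had 291 ± 1.7 CPM on day 0, 405 ± 5.9 on day 6 and 496 ± 7.8 on day 12 (CPM, counts scaled to library size with TMM factors; SD, n = 3 each). Its level was thus higher, not lower, after 4-hydroxytamoxifen, and a count over the whole gene cannot check a deletion of unnamed exons. The groups are therefore called by day, and time, either drug and PAX8 level cannot be told apart. Of 11 proximal tubule markers, 8 stayed under 1 TPM (a level per transcript length) in all 9 libraries, and Slc34a1, Slc5a12 and Slc22a6 were listed at 0, whereas Lrp2 and Aqp1 were present. Lrp2 went from 33.3 ± 3.8 to 5.2 ± 0.96 and 7.41 ± 1.5 TPM and Aqp1 from 65.2 ± 6.9 to 184 ± 6.7 and 216 ± 17. Ggt1, the other marker to reach 1 TPM, had 1.96 ± 0.31, 0.507 ± 0.20 and 2.61 ± 0.50. Of the 4 proximal tubule markers tested, Lrp2, Cubn and Ggt1 fell by day 6 and Aqp1 rose. The 11 markers summed to 93.7 to 110 TPM on day 0, 182 to 194 on day 6 and 206 to 241 on day 12, mostly Aqp1. Markers of loop and distal tubule (4 of 4), collecting duct (3 of 4), podocytes (3 of 4), endothelium (5 of 5), immune cells (5 of 6) and stroma (5 of 7) were under 1 TPM in every library. The podocyte list summed to 17.3 to 23.9 TPM, mostly Podxl, and the immune list to 20.6 to 24.3, mostly Cd68. The 7 stromal markers summed to 4.96 to 5.12 TPM on day 0, 1.61 to 1.77 on day 6 and 6.95 to 7.99 on day 12, and the part of any of these markers in the results was not tested. Transcripts of the mitochondrial genome took 6.79% ± 0.14, 7.09% ± 0.072 and 2.83% ± 0.99 of counts at the 3 days. With those counts left out, all 30 fold changes of the members kept their direction and call.

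TEAD factors recognise the letters GGAATG, which read as CATTCC on the other strand. Both orientations were searched in RefSeq promoter windows on GRCm38.p6, which run from 250 bases before to 50 after an annotated start. A gene can have more than 1 start. The windows of Amotl1, Amotl2, Ankrd1 and Lats2 lie within the gene spans given below, so their starts are not the outermost ones. Windows were found for 8 of the 10 genes, and 7 of those 8 genes held the letters in at least 1 window; over all windows of the same length the share was 14.7%, and over all genes 16.6%. The windows of Ccn1 and Ankrd1 are shown because these genes had the largest and the third-largest rise of the members after doxycycline. Capitals mark the TEAD letters. Ccn1 (chr3:145649936-145650235, minus strand) holds them once, 103 bases before the start and in the CATTCC orientation, and Ankrd1 (chr19:36119795-36120094, minus strand) holds them at 210 and 123 bases before the start as GGAATG.
Ccn1: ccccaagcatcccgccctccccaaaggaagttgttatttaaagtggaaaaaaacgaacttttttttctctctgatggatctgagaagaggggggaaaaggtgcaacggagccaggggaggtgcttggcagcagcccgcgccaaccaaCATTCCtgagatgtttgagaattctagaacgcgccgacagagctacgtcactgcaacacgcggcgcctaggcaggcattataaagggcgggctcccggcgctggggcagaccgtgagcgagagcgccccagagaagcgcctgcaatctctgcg
Ankrd1: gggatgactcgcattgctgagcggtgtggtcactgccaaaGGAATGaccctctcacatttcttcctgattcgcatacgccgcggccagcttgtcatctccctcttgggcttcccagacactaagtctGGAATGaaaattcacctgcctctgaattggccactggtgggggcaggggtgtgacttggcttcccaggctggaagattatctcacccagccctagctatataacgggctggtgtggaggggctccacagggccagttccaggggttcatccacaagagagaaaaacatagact

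For the other 5 genes with the letters, 30 bases around 1 copy show how orientation and distance differ: Axl (chr7:25788949-25788978, minus strand, 233 bases before the start), Yap1 (chr9:8004720-8004749, minus strand, 141 before), Amotl2 (chr9:102717727-102717756, plus strand, 65 before), Ajuba (chr14:54577808-54577837, minus strand, 164 before, with another copy at 186) and Lats2 (chr14:57746102-57746131, minus strand, beginning 5 bases into the transcript).
Axl: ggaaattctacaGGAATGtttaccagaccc
Yap1: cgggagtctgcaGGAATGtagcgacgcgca
Amotl2: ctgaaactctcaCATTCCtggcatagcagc
Ajuba: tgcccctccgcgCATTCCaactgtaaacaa
Lats2: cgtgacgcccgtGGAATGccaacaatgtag
The Amotl1 window holds neither orientation, nor does another window of Lats2 (chr14:57734369-57734668, minus strand). This says only that these letters are not in those windows. The letters were present both in genes that rose and in genes that fell, and a match describes sequence, not binding.

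On the TPM scale, which allows genes to be ranked against each other, the members spanned a wide range on day 0. Ankrd1 was highest at 367 ± 8.0 TPM (SD, n = 3), with 98.0% of the 16353 tested genes below it, and was followed by Ccn1 at 151 ± 4.2, Amotl2 at 79.2 ± 1.7 and Axl at 75.9 ± 0.36. Ccn2 (60.2 ± 1.1), Ajuba (49.6 ± 1.3), Tead1 (31.9 ± 2.4), Yap1 (31.8 ± 0.46), Lats2 (16.4 ± 0.62) and Amotl1 (10.7 ± 0.48) came below. Tead1 and Yap1 were the only neighbours in that order whose libraries overlapped. On day 6 Axl stood above Ccn1, at 187 ± 3.2 against 165 ± 1.3 TPM, and Ccn2 and Amotl2 overlapped, as did Lats2 with Tead1 and Tead1 with Amotl1. On day 12 Ankrd1 (499 ± 16 TPM) and Ccn1 (467 ± 7.6) led, and the 3 lowest, Tead1, Amotl1 and Lats2, lay within 19.1 to 20.7 TPM, each overlapping its neighbour in the order. The 10 genes summed to 873 ± 4.1 TPM on day 0, 961 ± 13 on day 6 and 1599 ± 7.5 on day 12. Most of the last step lay in Ccn1 (165 to 467), Ankrd1 (292 to 499) and Ccn2 (86.1 to 175). With TMM scaling 5 members fell over that step.

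**Figure D1:**
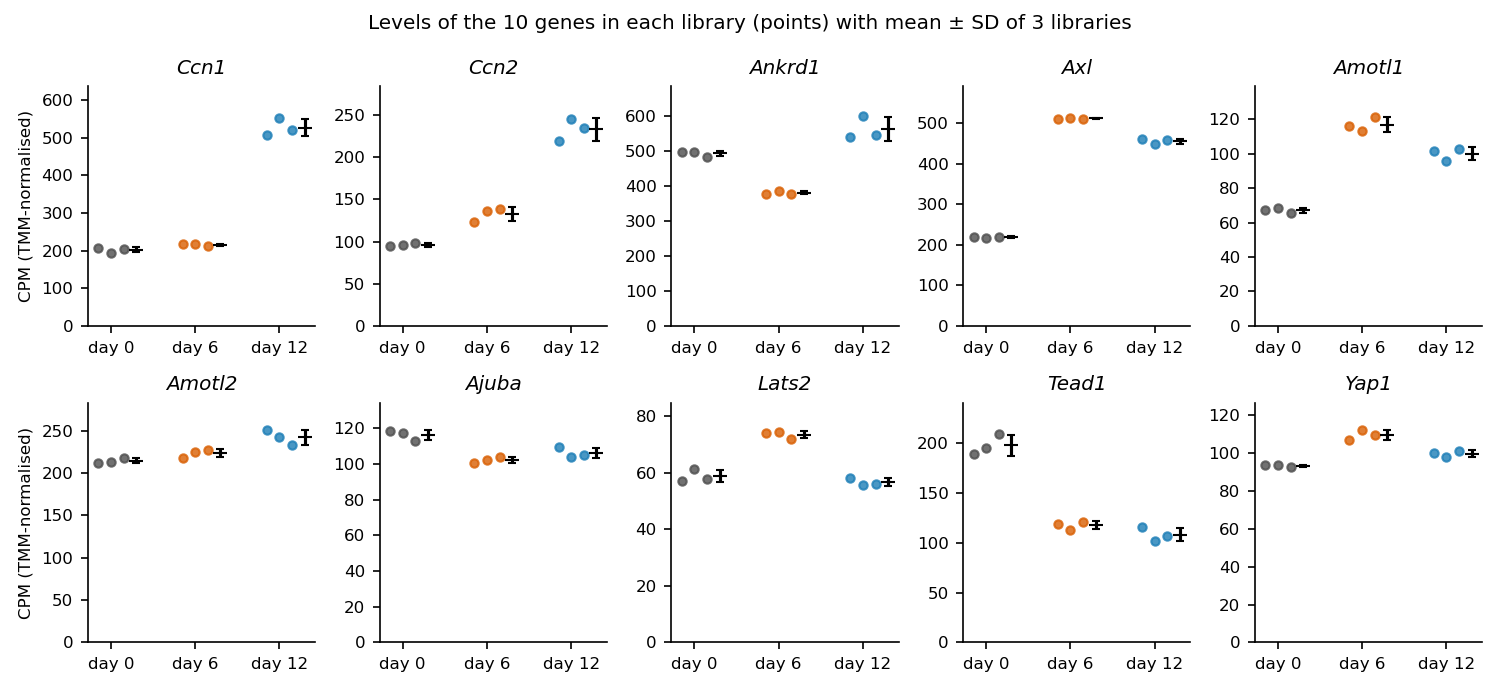
CPM (TMM-normalised, linear axis from 0) of each of the 10 genes in the 9 libraries by day; points are libraries and the black mark with bars is the mean ± SD of 3. Ccn1 and Ccn2 stand highest on day 12, Axl and Amotl1 stand highest on day 6, and Tead1 stands highest on day 0.

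The 2 secreted matricellular targets, Ccn1 and Ccn2, rose most after doxycycline. Ccn1 (ENSMUSG00000028195, GRCm38 chromosome 3, 145646976 to 145649981, minus strand) encodes CYR61, an integrin ligand that acts on adhesion and migration. Its libraries read 208, 194 and 206 CPM on day 0, then 217, 217 and 213 on day 6, and 508, 552 and 521 on day 12. The first 6 libraries lay close together and the 3 of day 12 far above them. Between day 6 and day 12 the log2 fold change was 1.29 ± 0.037 (SE, edgeR adjusted p = 2.53e-12), a 2.44-fold rise that 254 of the 16353 tested genes exceeded. Between day 0 and day 6 it was 0.091 ± 0.037 (adjusted p = 0.0419), a call lost under 10 of the 18 alternatives, among them leaving out day 0 library B (adjusted p = 0.2) or C (0.0536) and day 6 library A (0.105), B (0.169) or C (0.0536).

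Ccn2 (ENSMUSG00000019997, chromosome 10, 24595442 to 24598683, plus strand) encodes CTGF, a matricellular protein known as a mediator of fibrosis. It had 94.6, 95.5 and 98.9 CPM in the untreated libraries, 124, 136 and 139 on day 6, and 219, 245 and 235 on day 12. No library overlapped one of another day, and the level was higher at each later day. The log2 fold change was 0.46 ± 0.047 for day 6 against day 0 (adjusted p = 3.71e-07), 0.81 ± 0.046 for day 12 against day 6 (4.47e-09) and 1.28 ± 0.047 for day 12 against day 0 (adjusted p = 3.34e-12). A gene on the other strand that shares exon bases with Ccn2, Gm15270, had 15 to 48 counts in a library.

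Ankrd1 fell on day 6 and then exceeded its starting level. The gene (ENSMUSG00000024803, chromosome 19, 36111961 to 36120099, minus strand) encodes a nuclear and sarcomeric ankyrin repeat protein that responds to mechanical load. Untreated libraries gave 495, 497 and 483 CPM, day 6 libraries 377, 385 and 377, and day 12 libraries 538, 599.7 and 546. All 3 groups were separate, with the widest spread on day 12. The log2 fold change was −0.37 ± 0.039 by day 6 (adjusted p = 5.29e-07), 0.56 ± 0.039 from day 6 to day 12 (3.21e-08) and 0.19 ± 0.039 between day 12 and day 0 (adjusted p = 0.000483). The last value was 0.44 on log2(TPM + 1).

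Axl showed the reverse timing, with its main step by day 6. It encodes a receptor tyrosine kinase of the TAM family that binds the ligand GAS6 (ENSMUSG00000002602, chromosome 7, 25757273 to 25788705, minus strand). Its CPM were 220.1, 217 and 220.2 on day 0, against 510.0, 513 and 511 on day 6 and 459.7, 448 and 458 on day 12. All 6 treated libraries lay far above the untreated ones. This 2.33-fold rise (log2 fold change 1.22 ± 0.028, adjusted p = 1.01e-14) was followed by a change of −0.17 ± 0.028 (adjusted p = 0.00018) with TMM scaling. That later fall flipped to 0.058 (adjusted p = 0.214) on log2(TPM + 1), a scale on which the median of all tested genes rose by 0.16, so that Axl stood 0.11 below the median there too. Against day 0, Axl was still 2.08-fold higher on day 12 (adjusted p = 8.81e-14).

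The angiomotin-like genes differed from each other. Their products are scaffold proteins of tight junctions and actin that bind YAP directly. Amotl1 (ENSMUSG00000013076, chromosome 9, 14541966 to 14645056, minus strand) went from 67.3, 68.7 and 65.5 CPM to 116, 113 and 122 by day 6, and stood at 101, 95.8 and 103 on day 12. The groups did not overlap, and day 6 was highest. It rose by 0.80 ± 0.037 on the log2 scale (adjusted p = 2.98e-11) and then fell by 0.23 (SE 0.036, adjusted p = 0.000122). On log2(TPM + 1) that second difference was −0.013 (adjusted p = 0.871), which is 0.18 below the median of all genes there. Amotl2 (ENSMUSG00000032531, chromosome 9, 102716672 to 102733418, plus strand) had 212, 213 and 218 CPM on day 0, 218, 225 and 227 on day 6, and 251, 243 and 233 on day 12. The step to day 6 was not called (0.059 ± 0.032, adjusted p = 0.126), and the rise from day 6 to day 12 was 0.12 ± 0.032 (adjusted p = 0.0079). On log2(TPM + 1) that rise was 0.34, and day 12 against day 0 was 0.45 in place of 0.18 with TMM. The median of all genes rose there by 0.16 and 0.19 in these comparisons.

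Ajuba (ENSMUSG00000022178, chromosome 14, 54567472 to 54577558, minus strand), a LIM protein of adherens junctions that binds and restrains LATS, had its largest change by day 6, a 1.14-fold fall. Its libraries held 118, 117 and 113 CPM on day 0, 100.4, 102 and 104 on day 6, and 109, 104 and 105 on day 12. It fell by 0.18 on the log2 scale by day 6 (SE 0.031, adjusted p = 9.68e-05), and the later change of 0.054 ± 0.031 was not called (adjusted p = 0.18). Upper-quartile scaling (0.093, adjusted p = 0.0206) and log2(TPM + 1) (0.25, adjusted p = 0.000687) did call that later change. These values stood 0.046 and 0.083 above the medians of all genes on those scales. The difference of day 12 from day 0, −0.13 ± 0.031 (adjusted p = 0.00189), flipped to 0.12 on log2(TPM + 1), which is 0.07 below the median of all genes there.

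Lats2, which encodes the kinase that phosphorylates YAP, rose by day 6 and fell after it. Its libraries (ENSMUSG00000021959, chromosome 14, 57689662 to 57758388, minus strand) read 57.3, 61.2 and 57.9 CPM, then 74.3, 74.3 and 72.1, then 58.3, 55.8 and 56.1. The day 0 and day 12 libraries overlapped and those of day 6 lay above both. Values were 0.32 ± 0.034 (adjusted p = 5.26e-07) for the rise and −0.38 ± 0.034 (adjusted p = 5.46e-07) for the fall as log2 fold changes, the fall being −0.12 on log2(TPM + 1). Day 12 and day 0 differed by −0.051 ± 0.034 (adjusted p = 0.202), which became 0.21 on log2(TPM + 1) (adjusted p = 0.00238), 0.022 above the median of all genes. An overlapping gene on the same strand, Gm49361, held 0 to 18 counts in a library.

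Yap1, the coactivator itself (ENSMUSG00000053110, chromosome 9, 7931999 to 8004596, minus strand), changed by at most 1.17-fold with TMM scaling. It had 93.5, 93.7 and 92.7 CPM on day 0, 107, 112 and 109 on day 6, and 99.99, 97.8 and 101 on day 12. Day 6 was highest and the groups did not overlap. It rose by 0.23 ± 0.029 on the log2 scale (adjusted p = 4.76e-06) and then fell by 0.13 (SE 0.029, adjusted p = 0.00158), a change that read 0.064 on log2(TPM + 1) (adjusted p = 0.189) and was 0.10 below the median of all genes there. Day 12 was 0.095 ± 0.029 above day 0 (adjusted p = 0.00982), a call lost with DESeq2 size factors in edgeR (adjusted p = 0.0519) and with DESeq2 (0.0674). On log2(TPM + 1) that difference was 0.35 (adjusted p = 2.37e-05), where the median of all genes rose by 0.19.

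Tead1 (ENSMUSG00000055320, chromosome 7, 112679318 to 112906807, plus strand), a DNA-binding partner of YAP and TAZ, was the member that fell most. The untreated libraries held 189, 195 and 209.6 CPM, the day 6 libraries 119, 113 and 121, and the day 12 libraries 115, 102 and 107. Both later groups lay below every untreated library and overlapped each other. The fall by day 6 was 0.75 on the log2 scale (SE 0.047, adjusted p = 1.32e-09), a 1.68-fold decrease, and by day 12 the log2 fold change from day 0 was −0.87 ± 0.047 (adjusted p = 2.9e-10). Between day 6 and day 12 it was −0.12 ± 0.047 (adjusted p = 0.0492). That call was lost on leaving out day 0 library B (adjusted p = 0.0637), day 6 library A (0.12) or C (0.155), or day 12 library B (0.19) or C (0.119), and with upper-quartile scaling (0.168). The value flipped to 0.022 on log2(TPM + 1), which is 0.14 below the median of all genes there.

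**Figure D2:**
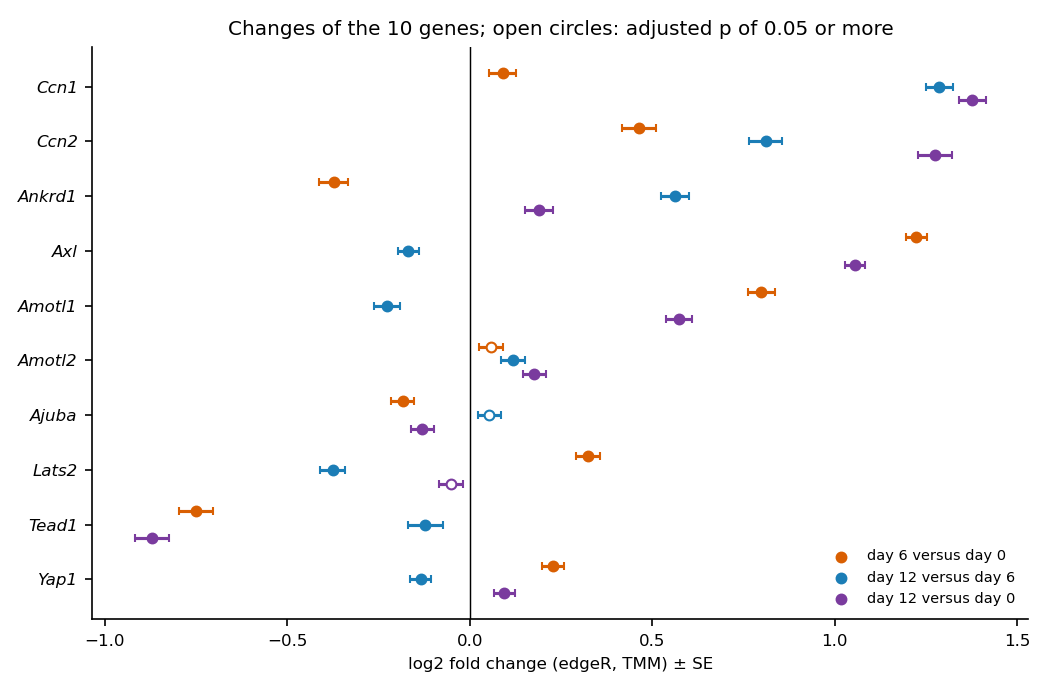
Log2 fold change (x axis, edgeR with TMM, ± SE) of the 10 genes in the 3 comparisons; filled circles have an adjusted p under 0.05. Ccn1, Ccn2 and Ankrd1 lie to the right after doxycycline (1.29, 0.81 and 0.56), while Axl and Amotl1 lie to the right by day 6 (1.22 and 0.80) and Tead1 to the left (−0.75).

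Counted together, 6 members rose and 3 fell between day 0 and day 6. Over all tested genes 33.5% rose and 31.4% fell, so that 64.9% were called. From day 6 to day 12, 4 members rose and 5 fell, against 22.6% and 22.7% of all genes (45.3% called). On day 12 against day 0, 7 were higher and 2 lower, against 34.7% and 31.7% (66.4% called). The member medians were 0.16, −0.033 and 0.18 on the log2 scale, beside 0.022, 0.0084 and 0.025 for all genes. Changes of at least 2-fold were rarer, with Axl by day 6, Ccn1 from day 6 to day 12, and Ccn1, Ccn2 and Axl on day 12 against day 0. Of all 16353 tested genes, 1579 rose and 761 fell at least 2-fold by day 6. The counts were 373 and 325 from day 6 to day 12, and 1542 and 683 on day 12 against day 0. The comparisons share libraries, so that they are not independent of each other. The direction of small day 12 changes depends on scaling: of the genes called between day 6 and day 12, 49.97% were higher on day 12 with TMM, 60.5% after upper-quartile scaling and 90.1% in the fit of log2(TPM + 1), and against day 0 the shares were 52.3% with TMM and 81.3% on log2(TPM + 1).

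**Figure D3:**
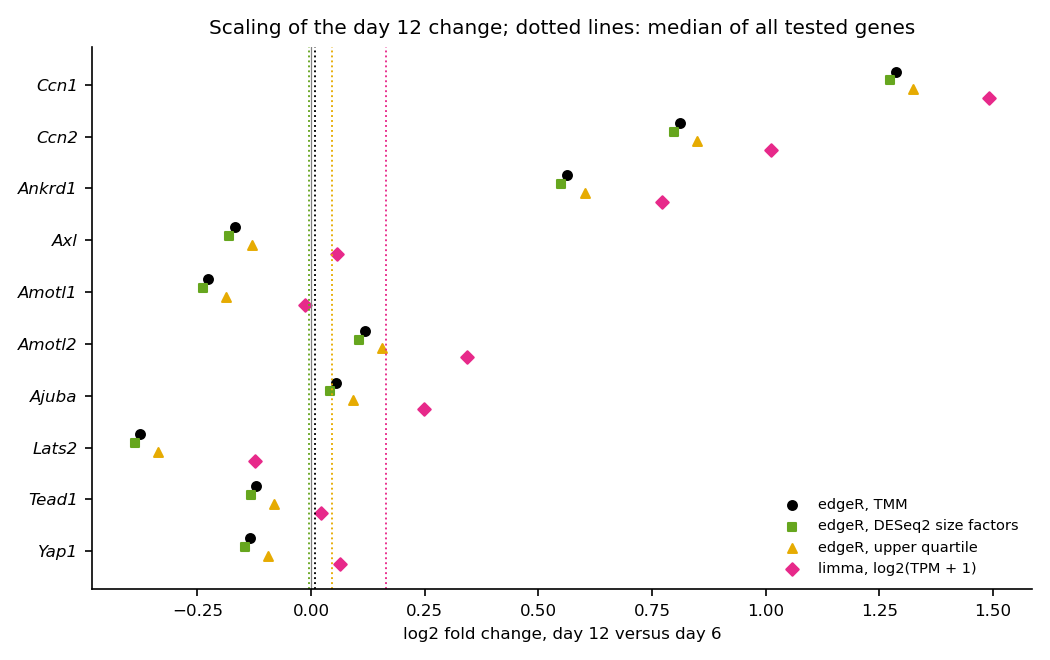
Log2 fold change from day 6 to day 12 of the 10 genes under 4 scalings; dotted vertical lines give the median of all tested genes under the scaling of the same colour (0.0084 with TMM, 0.16 on log2(TPM + 1)). Ccn1, Ccn2 and Ankrd1 lie right of every median, while Axl, Yap1 and Tead1 change sign on log2(TPM + 1) and remain left of its median.

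Ratios between paralogs within a library do not depend on library scaling, and were compared on TPM. They are given as a description, with no test. Tead1 made up 21.4% ± 1.1 of the summed TPM of the 4 TEAD genes on day 0, 11.7% ± 0.40 on day 6 and 11.1% ± 0.42 on day 12. Tead2 was the most abundant TEAD gene, at 107, 139 and 151 TPM. Tead2 rose by 0.31 on the log2 CPM scale by day 6 (adjusted p = 1.27e-07) and Tead3 by 0.81 (3.25e-08), opposite to Tead1. Tead4, at 2.86 TPM on day 0, was not called by day 6 (adjusted p = 0.162) and fell by 0.47 from day 6 to day 12 (adjusted p = 0.000231).

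Wwtr1, which encodes TAZ, exceeded Yap1 in every library, with a Yap1 to Wwtr1 ratio of 0.311 ± 0.012 on day 0, 0.379 ± 0.012 on day 6 and 0.368 ± 0.009 on day 12. Wwtr1 itself was not called by day 6 (−0.039, adjusted p = 0.361). Lats1, the other LATS kinase gene, fell by 0.29 by day 6 (adjusted p = 1.63e-05) and again by 0.38 by day 12 (4.56e-06). The Lats2 to Lats1 ratio stood at 0.605 ± 0.038, then 0.907 ± 0.025, then 0.917 ± 0.040.

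Axl was the dominant TAM receptor gene, with 84.2% ± 0.69 of the family's summed TPM on day 0, 91.4% ± 0.49 on day 6 and 91.0% ± 0.076 on day 12. Its ligand gene Gas6 rose further, from 10.2 ± 0.62 to 45.4 ± 2.1 CPM by day 6 (log2 fold change 2.14, adjusted p = 1e-13). Mertk (0.25, adjusted p = 0.00228) and Tyro3 (0.24, adjusted p = 0.00016) rose less, as did Pros1, another TAM ligand gene (0.66, adjusted p = 7.39e-06).

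Amotl2 exceeded Amotl1 7.42 ± 0.47 times on day 0, 4.27 ± 0.12 times on day 6 and 5.48 ± 0.29 times on day 12. Amot, the founding family member, moved by 0.085 by day 6 (adjusted p = 0.0458). The AJUBA relatives also differed: Wtip rose by 0.70 by day 6 (adjusted p = 4.03e-10), whereas Limd1 did not pass (−0.046, adjusted p = 0.185). In the CCN family, the ratio of Ccn1 to Ccn2 was 2.50 ± 0.092 on day 0, 1.93 ± 0.14 on day 6 and 2.68 ± 0.080 on day 12. Ccn4 rose by 0.83 (adjusted p = 1.86e-10) and Ccn5 by 4.32 (5.34e-15) by day 6, Ccn5 from 1.8 ± 0.17 to 36.0 ± 1.7 CPM. Ccn3 went from 0.111 ± 0.045 to 2.82 ± 0.095 CPM (adjusted p = 1.15e-10), with only 5, 9 and 9 counts in the day 0 libraries. From day 6 to day 12 neither Ccn3 (adjusted p = 0.736) nor Ccn4 (0.1) was called, and Ccn5 fell by 0.59 (7.24e-06), while Ccn1 and Ccn2 rose. Ccn6 and Ankrd2 were too low to test, and Ankrd23 was called in no comparison (adjusted p = 0.944, 0.613 and 0.51).

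**Figure D4:**
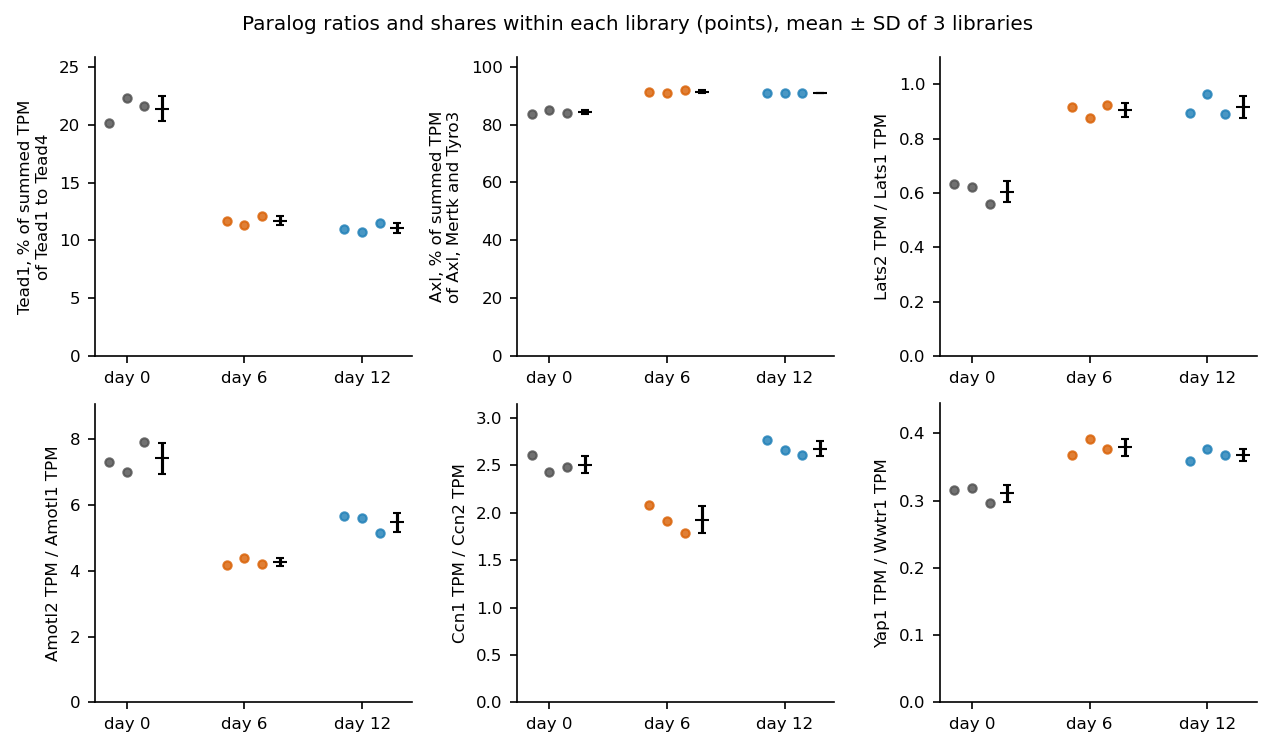
Paralog ratios and shares on TPM in each of the 9 libraries by day (axes from 0; black marks are mean ± SD of 3). Tead1's share of TEAD TPM drops from 21.4% to 11.7% by day 6 and the Lats2 to Lats1 ratio goes from 0.605 to 0.907, and both stay near their day 6 values on day 12.

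Other targets of the pathway moved in both directions. Of 16 further genes of a published YAP/TAZ signature, 14 were tested, of which 10 rose and 4 fell by day 6 (median 0.77). From day 6 to day 12, 5 rose and 4 fell (median 0.018), and on day 12 against day 0 10 were higher and 4 lower (median 0.53). The shares called were 100%, 64.3% and 100% of the 14, against 64.9%, 45.3% and 66.4% of all genes. Nt5e, the ectonucleotidase CD73, went from 108 ± 2.8 to 33.4 ± 0.45 and then 44.1 ± 1.8 CPM, and F3, tissue factor, from 269.6 ± 1.6 to 101 ± 3.1 and then 181 ± 11. Nt5e fell by 1.70 on the log2 scale by day 6 (adjusted p = 3.58e-15) and rose by 0.40 after it (7.04e-07). F3 fell by 1.41 (adjusted p = 1.42e-13) and rose by 0.84 (7.72e-10). Gadd45a, a stress-inducible growth arrest gene, rose from 24.7 ± 0.59 to 61.6 ± 0.88 CPM by day 6 and stood at 60.3 ± 2.4. Fjx1 was 1.58 higher on day 12 than on day 0 (adjusted p = 3.67e-13), and Arhgef17 fell by 0.31 after day 6 (3.05e-05).

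Of 20 other reported targets, 18 were tested, and 10 rose and 6 fell by day 6 (median 0.18). After day 6, 6 rose and 7 fell (median −0.012), and on day 12 10 were above and 7 below day 0 (median 0.38). Calls covered 88.9%, 72.2% and 94.4% of the 18, against 64.9%, 45.3% and 66.4% of all genes. Nuak1, a kinase gene, rose from 21.8 ± 1.3 to 117 ± 1.5 CPM and Fstl1, a secreted glycoprotein, from 40.8 ± 0.84 to 174 ± 6.0. Arhgap29 fell from 311 ± 2.7 to 104 ± 1.5 CPM and then rose to 188 ± 6.3 (0.85, adjusted p = 4.1e-11). Thbs1, a matricellular protein like CCN1, was at 259 ± 21, 1582 ± 47 and 1029 ± 47 CPM, and fell after day 6 (−0.62, adjusted p = 2.18e-07) while Ccn1 and Ccn2 rose.

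Upstream genes changed in both directions by day 6 and were mostly lower later with TMM scaling. Of 17 kinases and adaptors, all tested, 5 rose and 8 fell by day 6 (median −0.0039). From day 6 to day 12, 1 rose and 9 fell (median −0.13), and 4 were higher and 12 lower on day 12 than on day 0 (median −0.18). These calls made up 76.5%, 58.8% and 94.1% of the 17, against 64.9%, 45.3% and 66.4% of all genes. On TPM, 3 of the 9 that fell from day 6 to day 12 were lower in all day 12 libraries and 6 overlapped. Of the 12 below day 0 with TMM, 3 were lower in all day 12 libraries on TPM, 7 overlapped and 2 were higher in all. How many of these genes stood lower on day 12 thus depends on scaling, as it does over all tested genes. On log2(TPM + 1), 90.1% of all genes called between day 6 and day 12 were higher on day 12, and 81.3% against day 0. No gene of that list changed by 2-fold in any comparison with TMM. Of all 16353 tested genes, 373 rose and 325 fell that far from day 6 to day 12, and more did in the other comparisons. The merlin gene Nf2 rose from 127 ± 3.1 to 202 ± 3.0 CPM, Stk3, which encodes MST2, fell from 99.0 ± 2.2 to 70.6 ± 0.73, and Wwc1, which encodes the scaffold KIBRA, fell from 401 ± 7.0 to 226 ± 7.1 and then rose to 321 ± 9.6. Wwc1 was the gene of the list that rose after day 6 (0.51, adjusted p = 2e-08), while Map4k4 fell by 0.37 (3.6e-07) and Mob1b by 0.34 (3.58e-06).

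Of 18 junction and polarity genes that act on the pathway, 16 were tested, with 7 risen and 6 fallen by day 6 (median −0.096). Later, 2 rose and 5 fell (median −0.025), and on day 12 5 were above and 6 below day 0 (median −0.027). In these comparisons 81.25%, 43.75% and 68.75% of the 16 were called, against 64.9%, 45.3% and 66.4% of all genes. The last 2 shares are near those of all genes. The Crumbs complex genes Patj (−0.88, adjusted p = 1.04e-11) and Mpp5, which encodes PALS1 (−0.61, adjusted p = 9.38e-10), fell by day 6. The tight junction scaffold Tjp1 (−0.23, adjusted p = 0.000167) and the cadherin Fat1 (−0.50, adjusted p = 0.00101) fell from day 6 to day 12. Of 11 nuclear partners, 8 were tested. By day 6, 5 rose (median 0.48), and Tead4 (adjusted p = 0.162), Runx1 (0.312) and Wwtr1 (0.361) were not called. From day 6 to day 12, 7 fell (median −0.18), against 22.7% of all genes, and Vgll4 was not called (adjusted p = 0.985). On TPM, 1 of these 7 was lower in all day 12 libraries and 6 overlapped. Against day 0, 5 were higher and 3 lower on day 12 (median 0.24). On TPM, 1 of these 3 was lower in all day 12 libraries, 1 overlapped and 1 was higher in all. Calls were made for 62.5%, 87.5% and 100% of the 8 in these comparisons, against 64.9%, 45.3% and 66.4% of all genes. Vgll4, a TEAD-binding repressor that competes with YAP, went from 35.7 ± 1.4 to 79.6 ± 3.3 CPM and stood at 79.7 ± 1.9. Runx2 rose by 1.64 (adjusted p = 3.32e-11) and Zeb1 by 0.65 (1.78e-10) by day 6, and they then fell by 0.35 (0.000819) and 0.35 (adjusted p = 1.22e-06). Of the genes that fell from day 6 to day 12 on the other lists, 2 of 4 further signature genes, 1 of 7 other reported targets and 0 of 5 junction and polarity genes were lower in all day 12 libraries on TPM. On the other side, 1 of these 7 targets and 1 of these 5 junction and polarity genes were higher in all day 12 libraries. Such TPM counts describe the libraries with no test, and the share over all tested genes was not counted for any list. Wwc1, Frmd6, Ptpn14, Tead4 and Vgll3 each stand on 2 of these lists.

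**Figure D5:**
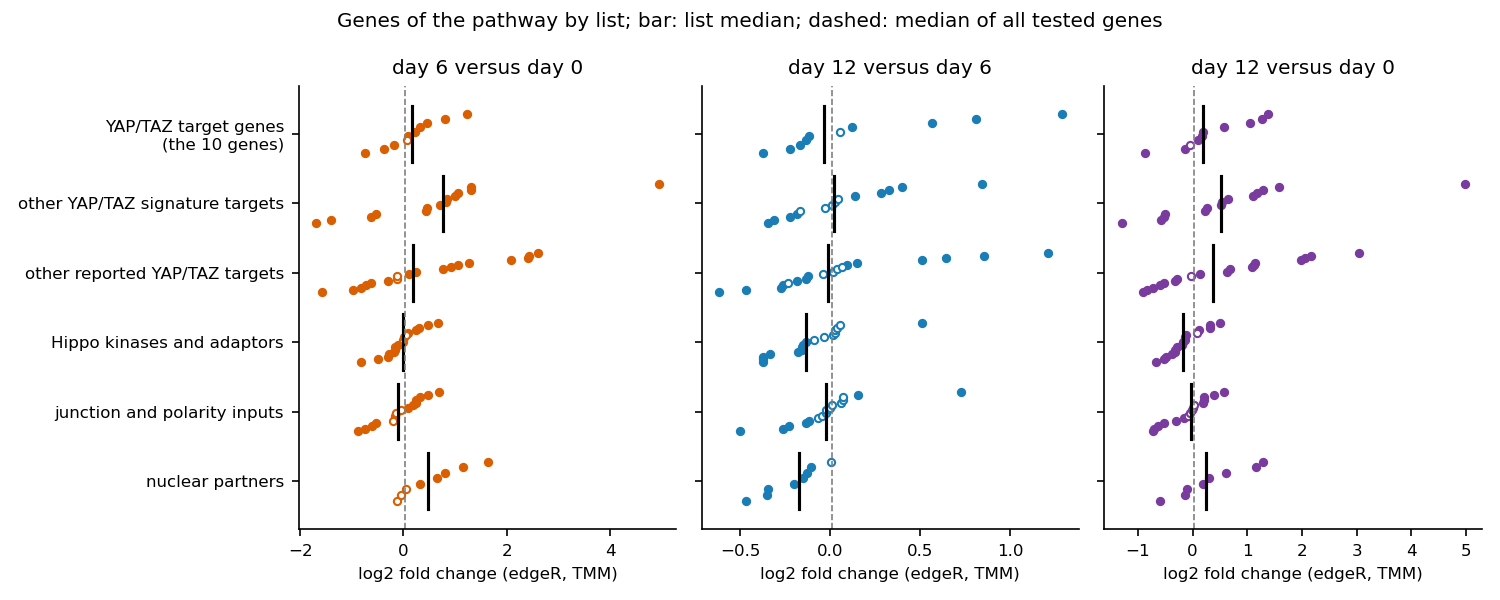
Log2 fold change (edgeR, TMM) of each tested gene in 6 lists for the 3 comparisons, with differing x axes; filled points have an adjusted p under 0.05, black bars are list medians and the dashed line is the median of all tested genes. Targets spread on both sides of 0 while kinases and adaptors stay within 1 on either side; the far right point in the day 0 comparisons is Foxf2, which rests on few counts (0.00481 CPM on day 0, 0.2 on day 6).

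Genes with the most similar course were sought as those with the smallest root mean square difference of centred log2 CPM over the 9 libraries. For Ccn1 these were Smpd3 (difference 0.161), Lrrc75b (0.181) and Ccn2 (0.212). For Ccn2 they were Btg2 (0.0955), Parm1 (0.0956) and Wdcp (0.145). Ankrd1 had Wdr89 (0.053), Hspb1 (0.0538) and Hes1 (0.0538) nearest, with Hes1 at 14.2 ± 0.59, 10.7 ± 0.49 and 15.9 ± 0.15 CPM by day. The profile of Yap1, with its small peak on day 6, was most like those of Faf2 (0.0206), Rnf2 (0.0236) and Retreg1 (0.024). The nearest other member was Amotl2 for Ankrd1 (0.213) and Lats2 for Yap1 (0.105). The search was made for these 4 members.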

How the data were processed

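Per the labels, the authors deposited counts for each gene, here whole numbers without normalisation, and a matching TPM table. The submitters' processing notes list STAR 2.7.8a, RSEM 1.3.3, cutadapt 2.3, FastQC 0.11.8 and GRCm38. What each did, the strand setting and the annotation release were not stated, and counts made by RSEM would be rounded estimates. Transgene entries (0.00204% to 0.00284% of counts) were left out. The filterByExpr filter kept 16353 genes and all 10 members. TMM-scaled counts of the 9 libraries entered 1 quasi-likelihood fit in edgeR 4.0.16 under R 4.3.3 (6 residual degrees of freedom), with two-sided F tests and Benjamini-Hochberg adjustment across every tested gene. "Rose" and "fell" mean an adjusted p below 0.05. Each SE was derived as the log2 fold change over the root of F. Positions are from GENCODE M21. The fits were tried on counts simulated from the spread fitted here, with as many risen as fallen genes on day 6. No day 12 shift over all genes was simulated, so how day 12 calls depend on scaling was not tried there. Alternatives were DESeq2 1.42.0, other scalings, no filter, mitochondrial counts left out, limma 3.58.1 on log2(TPM + 1) and log2(TPM + 0.1), only the groups compared, a replicate block and each library left out.

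The members and lists were chosen with earlier results of these data known. Named genes are the members, their paralogs, the 3 genes of each pathway list with the smallest adjusted p in a comparison, and the 3 nearest profiles of 4 members (mean CPM of 5 or more, no model names). Some genes that this rule names are not reported here. Foxf2, Runx1, Vgll3, the marker genes and those that overlap a member were named after their values were seen.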

Additional observations from a re-analysis of the deposited data

Results flagged for a closer look

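Reads assigned to the tdTomato entry, which was left out of all comparisons, were more frequent in the treated libraries than in the untreated ones. They stood at 2.58 ± 0.38 CPM of the library total on day 0, 4.08 ± 0.27 on day 6 and 5.37 ± 0.66 on day 12 (SD, n = 3 each), with no library of day 6 or day 12 as low as one of day 0. No test was run on it, and its part in the results was not tested.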

How the results depend on the processing

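Of the 30 fold changes of members, 21 kept direction and call under all 18 alternatives. The number of members called stayed within 1.5 times of 9 in each comparison under all of them, a wide margin. From day 6 to day 12, Amotl1, Axl, Tead1 and Yap1 lost their calls on log2(TPM + 1) and log2(TPM + 0.1), and Ajuba gained a call. On both scales Ajuba and Lats2 were called higher on day 12 than on day 0. The number fallen went from 5 to 1 between day 6 and day 12, and from 2 to 1 between day 0 and day 12, on log2(TPM + 1) and on log2(TPM + 0.1). The reversed values on log2(TPM + 1) and log2(TPM + 0.1) were 0.0579 and 0.0582 for Axl, 0.0220 and 0.0228 for Tead1 and 0.0636 and 0.0651 for Yap1 (day 12 against day 6), and 0.115 and 0.117 for Ajuba and 0.208 and 0.218 for Lats2 (day 12 against day 0). On these scales the median of all genes moved by 0.16 and 0.21, and by 0.19 and 0.25, and the cause was not tested. Same-lettered libraries of different days did not deviate together (9 correlations across genes of −0.0825 to 0.0711), so letters were not treated as pairs. With the letter as a replicate block, 10485 genes were called between day 0 and day 6 in place of 10605, and Ccn1 lost its day 6 call (0.091, adjusted p = 0.0629) while no other member's call changed. With at least 3387 counts for each member in a library, sampling of reads limits none of these values, and 3 libraries a group limit them all.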
